A study of Homo sapiens with 7 samples.

Results

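Polypyrimidine tract binding proteins are RNA-binding proteins that recognise pyrimidine-rich RNA through their RNA recognition motifs and mostly repress nearby exons. PTBP1 is the widely expressed member, PTBP2 (also called nPTB) takes over in neurons, and PTBP3 (also called ROD1) was first described in blood-forming cells. The family is known for control of its own messages: PTBP1 promotes skipping of a 34-nt exon in its own RNA and in that of PTBP2, and the skipped RNAs are removed by nonsense-mediated decay. The 3 genes were described here from all isoform rows assigned to them, matched by the stem of the Ensembl gene ID. They are 3 of 14294 genes and hold 177 of 386982 listed isoforms, of which 93 belong to PTBP1, 40 to PTBP2 and 44 to PTBP3. The rule itself uses no measured value.

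The study read full-length polyadenylated RNA of HUES66, a human embryonic stem cell line, on the PacBio Revio system. It directed Cas13d, an RNA-guided nuclease that cuts RNA, at isoforms of RBFOX2, itself a splicing regulator. There was 1 control library, labelled WT, and 6 libraries that carry an RBFOX2 id: G3 (178147), G5 (178149), G11 (178136), G12 (178135), G13 (178145) and G14 (178146). All 7, the control included, carry the label piggyBac (a transposon used to insert transgenes), received 1 µg/ml doxycycline and were sampled at 24 h. The labels do not say which RBFOX2 isoform an id denotes, whether the control carried a guide, or whether a line was clonal. Every group had 1 library, so there was no replicate, no p-value was computed, and intervals (95%) cover counting error only.

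Libraries held between 16801842 and 26678538 reads. RBFOX2, the targeted gene, stood at 107 TPM in the control, 42.1 in G3 and 55.9 in G13, and between 82.9 and 106 TPM in the other 4 libraries; TPM here divides reads by the depth of the library and ignores transcript length. The 6 stem cell markers (POU5F1, LIN28A, DPPA4, TDGF1, L1TD1 and DNMT3B) were all present and summed to between 1506 and 1930 TPM. Single markers moved in opposite directions within that sum. POU5F1 fell from 915 TPM in the control to 588 in G3, its next highest value, and 377 in G14, its lowest. DPPA4, TDGF1 and L1TD1 were above the control in every G library, DPPA4 reaching 1002 TPM in G5 from 745. LIN28A and DNMT3B were 170 and 44.3 TPM in the control, higher in G3 (179 and 68.0) and lowest in G13 (73.2 and 13.4). Of 7 neural markers, 5 had rows, and their sum ran from 43.1 TPM in G14 to 124 TPM in G3, most of it TUBB3. The defining neural genes PAX6 and SOX1 had no row, and STMN2 and ELAVL3 stayed at or below 0.24 and 0.43 TPM. The 5 mesoderm and endoderm markers summed to at most 0.12 TPM and the muscle markers to at most 0.06 TPM, while PTPRC and HBG1 of blood had no row.

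The exons on which the family's own control and its splice forms turn are printed from GENCODE 29 transcripts on GRCh38, in the direction of transcription. The opening set is the 34-nt exon of each gene, whose skipping shifts the reading frame, with capitals at the bases identical in all 3 genes (19 of 34). PTBP1 and PTBP2 share 25 of the 34 bases, PTBP1 and PTBP3 22, and PTBP2 and PTBP3 21. The exons lie at chr19:807869-807902 (plus strand), chr1:96806419-96806452 (plus strand) and chr9:112231380-112231413 (minus strand).
PTBP1 34-nt exon: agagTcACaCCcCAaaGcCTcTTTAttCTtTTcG
PTBP2 34-nt exon: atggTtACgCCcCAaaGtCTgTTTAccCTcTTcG
PTBP3 34-nt exon: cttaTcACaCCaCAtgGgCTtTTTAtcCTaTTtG

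The second set is the alternative exon that separates the leading PTBP1 isoforms. It is a coding exon of 78 nt at chr19:805492-805569 (plus strand) that encodes part of the linker between the second and the third RNA recognition motifs. Capitals mark the 21 bases absent from a rarer 57-nt form. PTBP3 has an exon of the same length at chr9:112234820-112234897 (minus strand), printed with capitals at the 50 of 78 positions identical to PTBP1.
PTBP1 78-nt exon: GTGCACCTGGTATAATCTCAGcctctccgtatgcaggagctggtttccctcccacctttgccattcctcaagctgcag
PTBP3 78-nt exon: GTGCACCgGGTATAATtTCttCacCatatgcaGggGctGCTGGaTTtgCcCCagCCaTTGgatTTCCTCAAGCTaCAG

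The last set holds the variable exons of the 2 scarcer genes. The PTBP2 exon at chr1:96804785-96804939 is used as a 155-nt or a 140-nt form, and capitals mark the 15 bases that only the longer form has. The start of the last PTBP2 exon (chr1:96813273-96813302), shown after 20 bases of the exon before it, has a splice site choice of 3 bases, in capitals. In PTBP3, capitals mark a 170-nt exon at chr9:112275844-112276013 that is included or skipped, between 20 bases of each neighbouring exon.
PTBP2 155-nt exon: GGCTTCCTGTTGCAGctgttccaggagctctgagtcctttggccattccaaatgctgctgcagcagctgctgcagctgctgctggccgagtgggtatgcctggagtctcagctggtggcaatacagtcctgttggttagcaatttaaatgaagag
PTBP2 last junction: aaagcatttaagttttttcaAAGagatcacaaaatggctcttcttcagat
PTBP3 170-nt exon: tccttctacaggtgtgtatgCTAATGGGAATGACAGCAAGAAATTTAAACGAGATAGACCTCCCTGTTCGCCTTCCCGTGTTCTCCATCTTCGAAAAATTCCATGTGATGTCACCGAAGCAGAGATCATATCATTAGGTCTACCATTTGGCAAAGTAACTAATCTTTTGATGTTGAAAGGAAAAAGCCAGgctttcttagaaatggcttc

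PTBP1 was by far the most abundant of the 3 and, as scaled to the library total, differed most between libraries; with the length and GC trend described below removed, PTBP3 did. PTBP1 (ENSG00000011304; chr19:797075-812327, plus strand) had 3101 reads in the control, against 5038 in G3, 5542 in G5 and 3198 in G11, with 2904 in G12, 2186 in G14 and 1548 in G13. As a level this was 185 TPM in the control, against 282 in G3, 218 in G5 and 154 in G11, with 109 in G12, 104 in G14 and 67.9 in G13. G3 and G5 lay above the control and the other 4 below it, and the highest level was 4.16 times the lowest. Ranked by level, each library differed from the next beyond counting error, except that G14 was 95.9% of G12 (90.7 to 101).

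Against the control, PTBP1 stood at 153% (146 to 160) in G3, 118% (113 to 123) in G5 and 83.2% (79.1 to 87.4) in G11. It was 59.0% (56.0 to 62.1) in G12, 36.8% (34.6 to 39.1) in G13 and 56.5% (53.5 to 59.7) in G14. The library lowest for PTBP1, G13, was not the one lowest for RBFOX2, which was G3, where PTBP1 was highest. The differences on the log2(TPM + 0.5) scale, used for all fold comparisons below, were 0.61, 0.24, -0.26, -0.76, -1.44 and -0.82 in the same order, with a median of -0.51. Only G13 was past 2-fold, in a library where 14.6% of the 7877 genes compared (mean level of at least 5 TPM) were at least 2-fold lower. Neither PTBP1 nor the other members reached 2-fold in G5, where 10.1% of genes were that much lower, or rose 2-fold anywhere. The share of genes at least 2-fold higher was 0.533% in G5, 0.724% in G11, 0.546% in G12 and 1.04% in G13. In G3 the PTBP1 difference was above that of 92.3% of genes, and in G13 above that of 7.36%. The neural marker sum was also highest in G3 (124 TPM) and above the values of G12, G13 and G14 (47.0, 51.9 and 43.1 TPM) in the control (88.1 TPM), but PAX6 and SOX1 had no row in any library. The part of either marker list in the PTBP1 differences was not tested.

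The differences of all genes moved with transcript length and GC content in these libraries, and PTBP1 is GC-rich. Its annotated isoforms, weighted by level, had 58.4% GC, above 81.3% of genes, and a length of 3424 nt, above 67.3%. With a smooth trend on length and GC content removed per library, the PTBP1 differences were 0.18 in G3, 0.09 in G5 and 0.06 in G11, with -0.15 in G12, -0.25 in G14 and -0.36 in G13. Their median was -0.045. G13 was then no longer past 2-fold, and 23.2% of genes had a lower value there. The order of the 6 libraries for PTBP1, with G3 at the top and G13 at the bottom, was the same by both measures. The source of the trend was not tested, and fewer RNA molecules per cell cannot be told apart from fewer cells with that RNA in bulk samples.

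PTBP2, whose RNA embryonic stem cells hold in small amounts, differed less than PTBP1 as scaled to the library total. PTBP2 (ENSG00000117569; chr1:96721665-96823738, plus strand) had 229 reads in the control, against 264 in G3, 379 in G5 and 248 in G11, with 278 in G12, 269 in G14 and 200 in G13. Its level was 13.6 TPM in the control, against 14.8 in G3, 14.9 in G5 and 11.9 in G11, with 10.4 in G12, 12.8 in G14 and 8.77 in G13. Ranked by level, no library was separated from its neighbour by the counting interval. Only G12, at 76.5% (64.0 to 91.5), and G13, at 64.4% (53.0 to 78.2), had intervals that excluded the control's level. The median difference over the 6 libraries was -0.14, and 0.0037 with isoforms of a mean of at least 1 TPM only; none passed 2-fold.

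PTBP3, a paralog that binds similar pyrimidine-rich RNA, was lower than the control in 5 of 6 libraries. PTBP3 (ENSG00000119314; chr9:112217716-112333667, minus strand) had 296 reads in the control, against 343 in G3, 414 in G5 and 260 in G11, with 233 in G12, 249 in G14 and 208 in G13. These made 17.6 TPM in the control, against 19.2 in G3, 16.3 in G5 and 12.5 in G11, with 8.73 in G12, 11.9 in G14 and 9.13 in G13. In the order of levels, G5 stood apart from G11 below it and G14 from G13 below it, while the other 4 neighbouring pairs were within counting error. PTBP3 was 70.8% (59.7 to 84.0) of the control in G11, 49.6% (41.6 to 59.1) in G12, 51.8% (43.2 to 62.1) in G13 and 67.5% (56.8 to 80.1) in G14. The median difference was -0.51, and the lowest, -0.97 in G12, was just short of 2-fold with 0.5 TPM added and past it with 0.1 TPM added (-1.004).

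**Figure D1:**
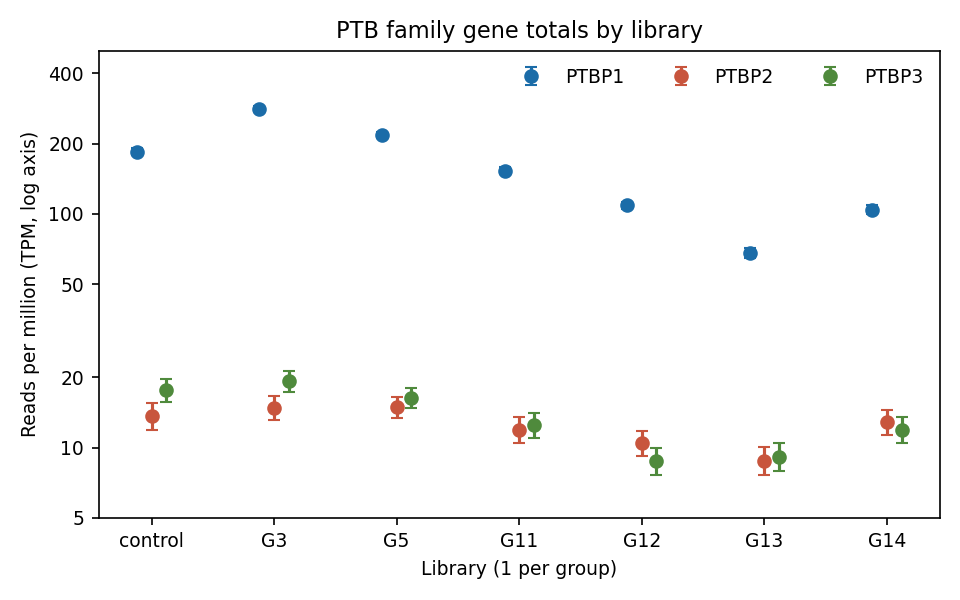
Level of PTBP1, PTBP2 and PTBP3 in each library in TPM (log axis); points are single libraries and bars are 95% counting intervals. PTBP1 runs from 67.9 TPM in G13 to 282 TPM in G3, while the other two genes stay between 8.73 and 19.2 TPM.

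Unlike PTBP1, both scarcer genes are AT-rich and long, with 36.1% and 37.1% GC, above only 2.09% and 4.05% of genes. Removing the length and GC trend raised PTBP1 and lowered both of them in G11, G12, G13 and G14, and lowered all 3 genes in G3 and G5. The PTBP3 differences became 0.03 in G3, -0.34 in G5 and -0.69 in G11, with -1.09 in G12, -0.92 in G14 and -1.09 in G13. Their median was -0.80. PTBP3 was then past 2-fold in G12 and G13, where 2.47% and 4.87% of the 7736 genes with length and GC were at least 2-fold lower on this scale. The share was 1.31% in G3, 2.42% in G5, 3.09% in G11 and 6.94% in G14, where no member was past 2-fold. In G12 the PTBP3 value was above that of 1.81% of genes. The PTBP2 median moved to -0.36, with its lowest value, -0.76, in G13; on this scale PTBP2 ranged more widely than PTBP1. The annotated length of PTBP2 (7398 nt) overstates the molecules read. ENST00000609116, for example, is 12014 nt in GENCODE 29, yet its row ends at chr1 position 96814791, close to the ends of the shorter isoforms. The GC content of PTBP2 came from the same full transcripts, without ENST00000674951, which has no GENCODE 29 entry. Its trend-removed values carry this limit too.

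**Figure D2:**
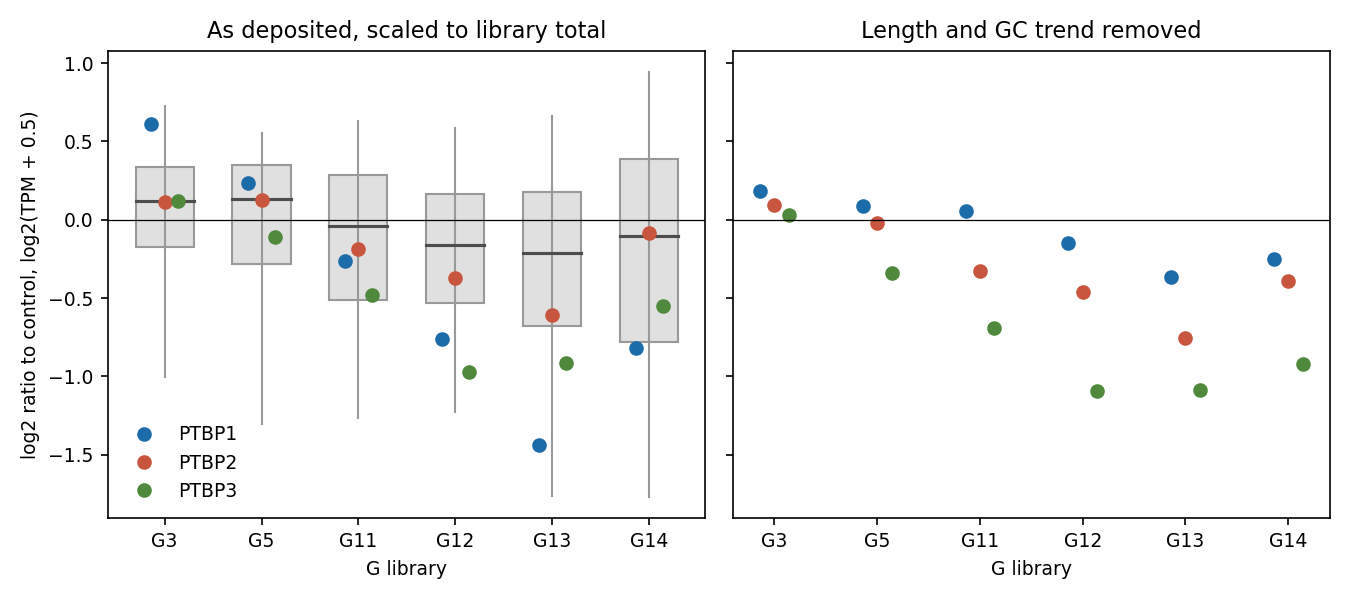
Difference of each gene from the control in log2(TPM + 0.5), as scaled to the library total (left) and with the length and GC trend removed (right); on the left, boxes show the 25th to 75th percentile of the 7877 genes with their median, and whiskers the 5th to 95th percentile. PTBP1 is at -1.44 in G13 on the left and at -0.36 on the right, while PTBP3 is at -1.09 in G12 and G13 on the right.

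Within the family, the share of reads that came from PTBP1 was highest in G3 and lowest in G13. One read stands for 1 cDNA molecule, so shares compare cDNA molecules without a length correction. Reads carry no molecular identifiers here, so cDNA copies of 1 RNA molecule cannot be told apart. Recovery of long molecules was not tested. PTBP1 made up 85.5% (84.3 to 86.6) of family reads in the control, 89.2% (88.4 to 90.0) in G3, 87.5% (86.6 to 88.3) in G5, 86.3% (85.1 to 87.4) in G11 and 85.0% (83.8 to 86.2) in G12. It made up 79.1% (77.3 to 80.9) in G13 and 80.8% (79.3 to 82.3) in G14. In G11 and G12 the share was within counting error of the control's, although the PTBP1 level was lower there. For each PTBP2 read there were 13.5 PTBP1 reads in the control, against 19.1 in G3, 14.6 in G5 and 12.9 in G11, with 10.4 in G12, 8.13 in G14 and 7.74 in G13. G13, lowest for PTBP1 of the 7 libraries, had the lowest PTBP1 to PTBP2 ratio, although PTBP2 was also at its lowest level there. These shares and ratios were not corrected for the length and GC trend. With that trend removed, the G13 differences were -0.36 for PTBP1, -0.76 for PTBP2 and -1.09 for PTBP3. On that scale PTBP1 was the least lowered member in G13, the opposite of its lower share of reads there.

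Most PTBP1 reads came from 2 isoforms that differ in the 78-nt exon. ENST00000356948, which holds the exon, took 53.5% of PTBP1 reads on average over the 7 libraries, and ENST00000349038, which lacks it, took 32.7%. ENST00000356948 had 1783 reads in the control, against 2930 in G3, 3111 in G5 and 1764 in G11, with 1518 in G12, 1121 in G14 and 686 in G13. ENST00000349038 had 973 reads in the control, against 1653 in G3, 1877 in G5 and 978 in G11, with 980 in G12, 673 in G14 and 553 in G13. Scaled to depth, in G13 the exon-containing isoform was at 28.4% (25.9 to 31.0) of its control level and the exon-lacking isoform at 41.9% (37.7 to 46.6). The other 91 isoforms, 86 of the 93 being hashed IDs with no reference transcript, each stayed below 5% of the gene on average.

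Among reads of annotated isoforms that cross this region, the 78-nt exon was included in 65.1% (63.4 to 66.9) in the control. Inclusion stood at 64.3% in G3, 63.0% in G5 and 65.5% in G11, with 62.0% in G12, 63.8% in G14 and 56.9% in G13. G13 stood lowest, 8.21 percentage points below the control (interval -11.4 to -4.98), and G12 was lower by a difference of -3.15 points (-5.73 to -0.58); in the other 4 the interval included 0. The isoforms counted here held 90.1% of PTBP1 reads in the control and between 82.9% (G13) and 92.0% (G3) in the others. Coverage was thus lowest in G13, and whether the remaining reads hold the exon is not known. The form that lacks the 21 capital bases was rare, at 1.57% of reads with either form in the control and at most 2.63% (in G11, where 50 reads had it).

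The isoforms of PTBP2 were thinly read, and its leading one, ENST00000674951, with 27.7% of reads on average, has no GENCODE 29 entry. Exon forms therefore rest on the other annotated isoforms, which held between 41.0% and 55.3% of PTBP2 reads. The 155-nt form of the exon printed above was used in 57.4% (47.4 to 67.0) of 94 such reads in the control, against 46.6% in G3, 41.8% in G5 and 51.3% in G11, with 40.8% in G12, 44.4% in G14 and 45.5% in G13. All 6 were lower than the same control, but the interval of the difference excluded 0 only in G5 (-27.3 to -3.29 points) and G12 (-29.2 to -3.28). The 3-base choice at the last exon showed no such pattern: the longer form was at 71.3% in the control and between 68.2% and 80.6% in the others, and all 6 intervals included 0.

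The 34-nt exon of PTBP2, the one that PTBP1 is known to repress, was included in 91.5% to 100% of the reads of annotated isoforms. The isoform that skips it, ENST00000476419, was below the read minimum set for describing forms and is given because of the exon's known role, chosen after its values were seen. It had 2 of 94 reads in the control, against 4 of 146 in G3, 16 of 189 in G5 and 0 of 117 in G11, with 5 of 125 in G12, 6 of 124 in G14 and 6 of 88 in G13. As shares these were 2.13% (0.59 to 7.43) in the control and 8.47% (5.28 to 13.3) in G5, the highest, and the count of 0 in G11 allows a share of up to 2.56% (3 reads of 117). Only in G5 did the interval of the difference from the control exclude 0. RNA that skips this exon is known to be removed by decay, so a share of reads is not the rate of skipping. For the 34-nt exons of PTBP1 and PTBP3 printed above, no listed isoform with a GENCODE 29 entry that spans them skips them. Skipping in hashed isoforms, whose exons are not known, could not be analysed.

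In PTBP3, 4 isoforms passed 5% of the gene, 2 of them hashed IDs. ENST00000374257 led with 41.9% of reads on average, and ENST00000343327, which skips the 170-nt exon, took 13.3%. Skipping this exon removes 170 nt, not a multiple of 3, but the skipping isoform is still annotated with a coding sequence. That sequence is 1371 nt, against 1572 nt in ENST00000374257. The 170-nt exon was included in 71.9% (64.3 to 78.4) of 153 annotated reads in the control, against 74.1% in G3, 73.1% in G5 and 75.1% in G11, with 81.2% in G12, 75.7% in G14 and 82.9% in G13. All 6 values were above the control's, with an interval that excluded 0 only in G13, at 10.99 points (0.61 to 20.6). The annotated reads counted here were 51.7% of PTBP3 reads in the control and 53.4% in G13, with the lowest share, 46.2%, in G14. Whether the remaining reads, which come from hashed isoforms, hold the exon is not known. In counts, the skipping isoform had 43 reads in the control, 26 in G12 and 19 in G13, although those libraries were deeper. Scaled to depth, it was at 38.1% (22.5 to 63.4) of the control in G12 and 32.6% (17.9 to 57.1) in G13. ENST00000374257, which includes the exon, was also lower, at 64.7% (49.2 to 85.2) and 62.1% (46.5 to 82.9). PTBP3 as a whole was at 49.6% and 51.8%.

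**Figure D3:**
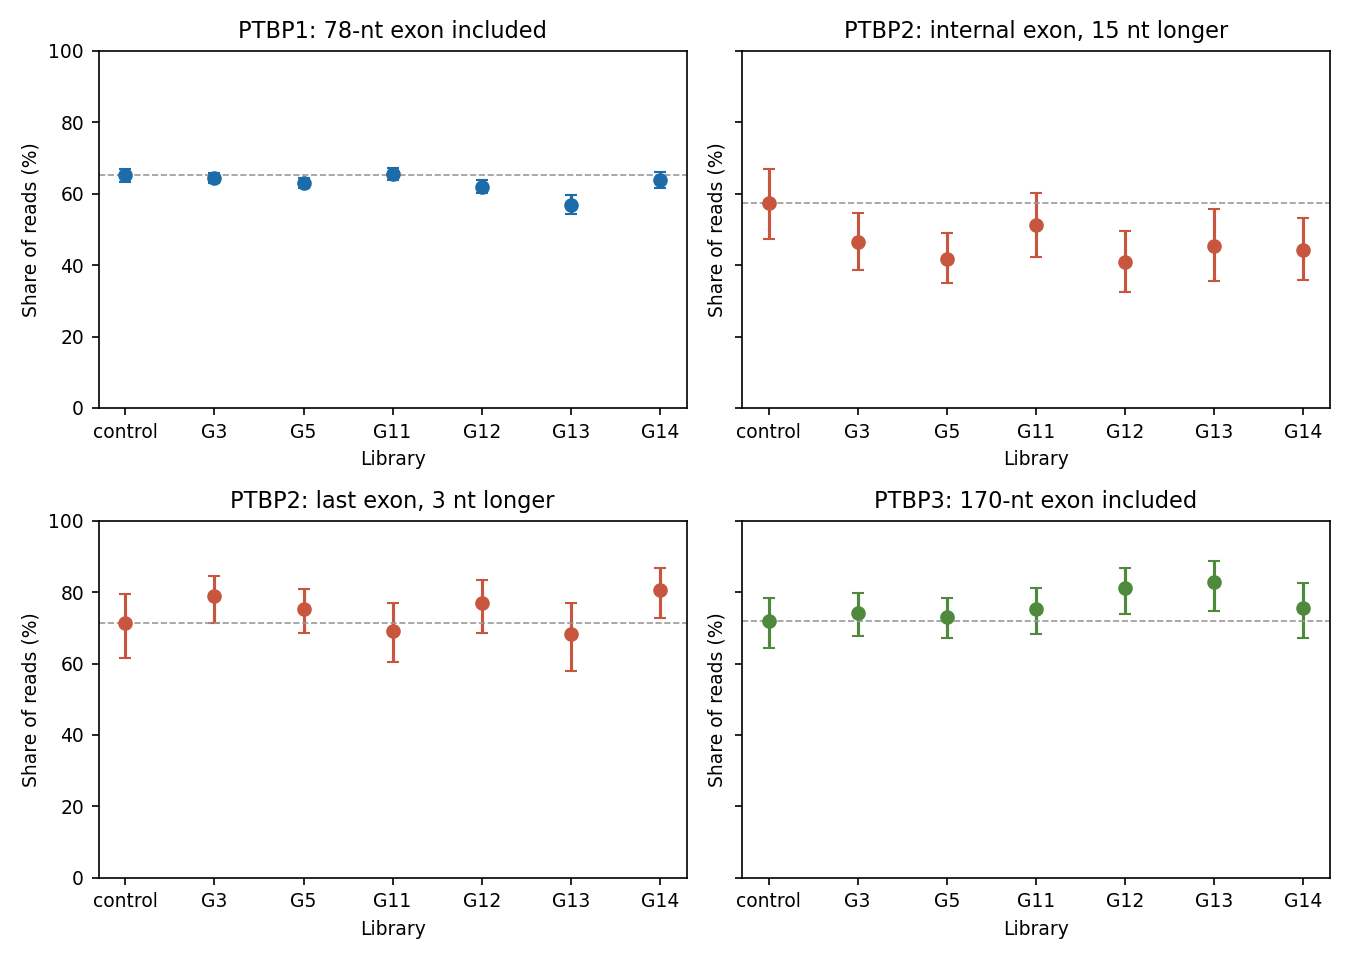
Share of reads of annotated isoforms with the longer or included form of 4 exon choices in each library, in percent. Points are single libraries, bars are 95% Wilson intervals and the dashed line is the control. The PTBP1 78-nt exon is at 56.9% in G13 and 65.1% in the control, and the intervals of PTBP2 and PTBP3 are wider than those of PTBP1.

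A single measure of how far all isoform shares moved is the usage distance, the part of a gene's reads that would have to change isoform to match the control (0 for the same shares, 1 for none in common). For PTBP1 it was 0.039 in G3, 0.043 in G5 and 0.058 in G11, with 0.087 in G12, 0.098 in G14 and 0.17 in G13, below 0.2 in every library, where between 9.32% (G5) and 14.9% (G13) of genes reached 0.2, with 9.64% in G3. For PTBP2 it lay between 0.19 and 0.26 and reached 0.2 in G5, G11, G12 and G13, where 9.32%, 10.9%, 11.2% and 14.9% of genes did. For PTBP3 it lay between 0.11 and 0.19. The smaller read numbers of PTBP2 and PTBP3 moved with their larger distances, and the part of sampling in them was not tested. Restricted to isoforms with a mean of at least 1 TPM, the median distance was 0.091 for PTBP2 and 0.081 for PTBP3.

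PTBP1 reads also differed in where they began, and this measure was added after the values were seen. A read was called internal if its isoform began no more than 10 nt before the second exon of the leading annotated isoform, or further downstream. For PTBP1, 141 of 3101 reads were internal in the control (4.55%), against 186 in G3 (3.69%), 304 in G5 (5.49%) and 271 in G11 (8.47%), with 274 in G12 (9.44%), 278 in G14 (12.7%) and 246 in G13 (15.9%). The share in G13 was 11.3 points above the control (9.44 to 13.4). PTBP1 was at least 5 points above the control in G13 and G14, where 8.71% and 6.73% of genes were. In the libraries where it was not, the share of genes was 0.325% in G3, 0.794% in G5, 3.72% in G11 and 6.04% in G12.

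In G11, G12, G13 and G14 the reads that reach the first exon were below their control level, while internal reads were not. Reads with a 5′ end in the first exon were at 154% of the control in G3, 117% in G5 and 79.8% in G11, with 56.0% in G12, 51.7% in G14 and 32.4% (30.4 to 34.6) in G13. Internal reads were at 124% in G3, 142% in G5 and 155% in G11, with 122% in G12, 158% in G14 and 129% (104 to 159) in G13; the intervals in G3 and G12 included 100%. The largest internal rows were 2 hashed isoforms that begin at chr19 position 803559, just before a 76-nt exon, and ENST00000350092 and hashed isoform 3 that begin at 799410 and 799412. Hashed isoform 1 had 48 reads in the control and 80 in G13, and hashed isoform 2 had 34 and 73. ENST00000350092 had 34 reads in the control, 86 in G11 and 44 in G13. Scaled to depth, hashed isoform 1 was at 123% (84.8 to 180) of the control in G13 and hashed isoform 2 at 158% (104 to 245). ENST00000350092 was at 204% (136 to 313) in G11 and 95.4% (59.6 to 154) in G13.

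The internal share of PTBP3 was 7 of 296 reads (2.36%) in the control and 18 of 208 (8.65%) in G13, a difference of 6.29 points (2.34 to 11.1). For PTBP2 the internal share was 14.8% in the control, 7.95% in G3 and 19.5% in G13, and only the lower G3 value differed beyond counting error. Few PTBP1 and PTBP2 reads ended early at the 3′ side. At least 99.9% of PTBP1 reads in each library ended at most 500 nt before the leading isoform's end, or anywhere downstream of that. At least 97.4% of PTBP2 reads did. For PTBP3 this share was 91.2% in the control, 86.5% in G13 and between 93.2% and 96.6% in the others. The spread of ends downstream was not measured. Per the labels, RNA integrity numbers lay between 8.7 and 9.7 without a value per sample, and the part of RNA quality in the internal starts was not tested.

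**Figure D4:**
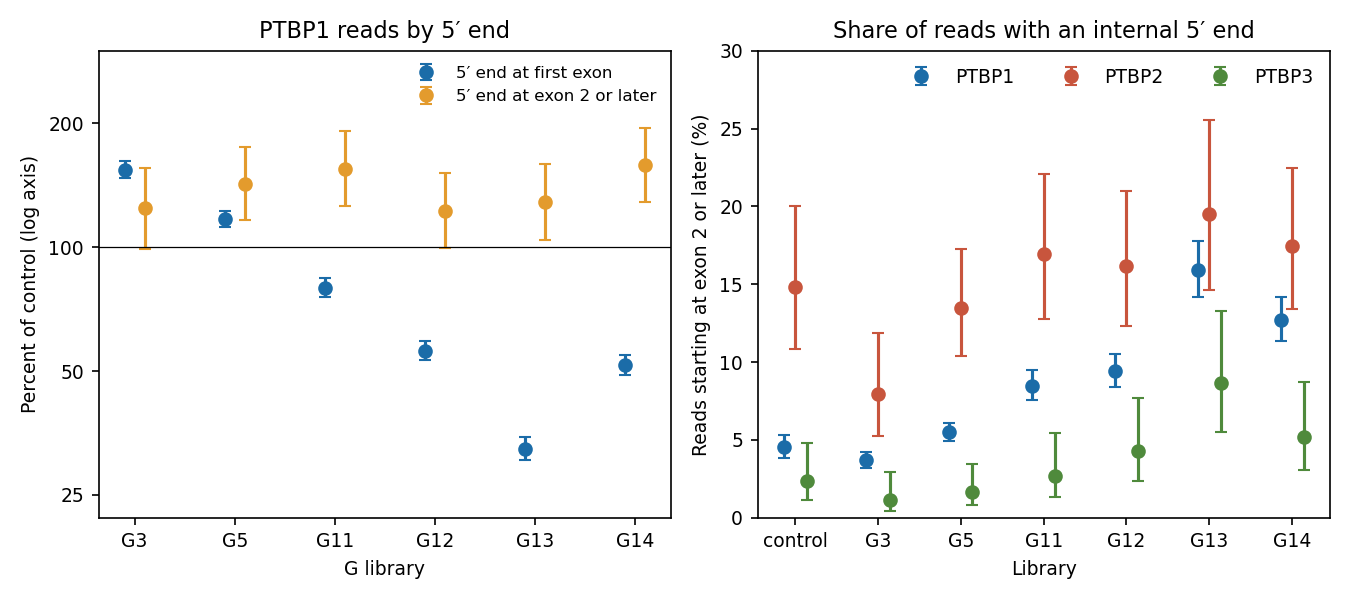
Left, PTBP1 reads by position of the 5′ end as a percentage of the control (log axis); right, the share of internal reads of each gene in percent; bars are 95% counting intervals and points single libraries. In G13 first-exon reads are at 32.4% and internal reads at 129%, and the internal share of PTBP1 is 15.9% against 4.55% in the control.

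Among proteins that act with or against the family, differences went both ways. Of 14 partners and relatives listed, 10 reached the level needed. In G13, 2 of the 10 were at least 2-fold lower and 0 higher, and their median difference was -0.29, beside -0.21 for all genes. RAVER1, a corepressor that binds PTBP1, was the extreme: its level was 79.2 TPM in the control, against 149 in G3, 79.6 in G5 and 16.9 in G11, with 10.4 in G12, 4.97 in G14 and 1.67 in G13. It was at least 2-fold lower in G11, G12, G13 and G14, where 10.4%, 8.79%, 14.6% and 18.9% of genes were. Its transcripts have 64.0% GC, above 95.6% of genes, and with the trend removed the G13 difference went from -5.20 to -3.33.

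None of the other partners compared fell as far below the control as RAVER1 did in G11, G12, G13 and G14. In G3 and G5, where RAVER1 differed by 0.90 and 0.007, some of them were further from the control than RAVER1. HNRNPL, a relative that binds CA-rich RNA, was higher by 1.14 in G3, where 1.89% of genes were at least 2-fold higher. It was lower in the other 5 libraries, with differences of -0.45 in G5, -0.86 in G11 and -0.82 in G12. The values were -0.94 in G13 and -0.25 in G14, and the median over the 6 libraries was -0.63. HNRNPL had no length and GC values, so its differences with the trend removed are not known. Its paralog HNRNPLL was higher in all 6 libraries, as 21.1% of genes were, and by 1.06 in G14, where 3.97% of genes were at least 2-fold higher. CELF1, which competes with PTB on some exons, had a difference of -1.04 in G13, and -0.81 with the trend removed. RBFOX2, also on this list, was lower by a difference of -1.34 in G3, where 5.14% of genes were at least 2-fold lower. MATR3, an RNA-binding protein that interacts with PTBP1, differed by between 0.09 and 0.43.

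Genes with exons that PTB is known to regulate were likewise mixed in level, which does not measure the use of those exons. Of 12 listed, 7 were compared, with a median difference of -0.30 in G13 and 0.40 in G3, beside -0.21 and 0.12 for all genes. The median usage distance of the 7 was 0.11 in G13 and 0.083 in G3, beside 0.073 and 0.064 for all genes. The use of single PTB-regulated exons was not analysed. In G13, 2 of the 7 (FLNA and USP5) were at least 2-fold lower, as 14.6% of all genes were. FLNA, which encodes the actin crosslinker filamin A, had 403 reads in the control, against 1013 in G3, 438 in G5 and 4 in G11, with 8 in G12, 1 in G14 and 1 in G13. FLNA was thus near 0 in 4 libraries and highest in G3, where it was higher by 1.23 and 1.89% of genes were at least 2-fold higher. The single read in G13 puts it at 0.18% of the control, with a counting interval of 0.0046% to 1.02%. FLNA transcripts are longer than 97.4% of genes and have 62.0% GC, and the trend-removed difference in G13 was -2.61, a value that depends on the 0.5 TPM added. USP5, a deubiquitinase with a PTB-regulated exon, was lower by a difference of -1.13 in G13 and by -0.23 with the trend removed. TPM1 (alpha-tropomyosin), the target with the highest median, was higher in all 6 libraries by 0.24 to 0.47, and PKM, whose mutually exclusive exons PTBP1 helps choose, differed by between -0.08 and 0.34.

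Over the 7 libraries, the genes whose log2 levels were most like PTBP1 were N4BP3 (Pearson r of 0.999), POGZ (0.999) and SH3BP1 (0.998). For PTBP2 they were COQ8A (0.991), VPS52 (0.985) and BAG3 (0.984), and for PTBP3 they were SLC12A8 (0.994), FLT1 (0.993) and MAPRE3 (0.991). PTBP1 correlated with PTBP2 at 0.90 and with PTBP3 at 0.91. RBFOX2 correlated with the 3 genes at between -0.12 and 0.15. These are descriptions over 7 points that share a depth scaling and the length and GC trend, picked from 7877 genes, and carry no test.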

How the data were processed

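Arrays of joined cDNA (MAS-Seq) were sequenced on a Revio instrument and cut in software into reads, each from a single cDNA molecule, per the labels' protocols. For each isoform and library the authors deposited a read count and a TPM value, per the file headers, and these TPM values carry no length term. The submitters' processing notes name minimap2 2.17 and GRCh38 (hg38); the isoform caller and annotation are not given in the sources used here. The table lists isoforms with 1 or more control reads, so RNA absent from the control is missed; its rows hold 98.1% to 98.6% of the reads of a G library. Rows with reads in the control alone held 1.48% of control reads of PTBP1, 6.99% of PTBP2 and 5.74% of PTBP3.

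Read counts were summed per gene, scaled to the library total and compared with the control as log2(TPM + 0.5) in genes with a mean of at least 5 TPM. Ratios carry exact Clopper-Pearson intervals, shares Wilson intervals and differences of shares Newcombe intervals; reads carry no molecular identifiers here. With 1 library per group no model was fitted across genes and no count test was run. Exon structures and sequences came from GENCODE 29 by transcript stem, so hashed isoforms entered by start and end alone. Length and GC, known for 7736 of 7877 genes, were removed as a quadratic surface per library. Genes were named if members, if on the partner or target list and at least 2-fold from the control in 1 library or at the list's largest or smallest median, or if among the 3 most correlated with a member; isoforms from a mean of 5% of a gene, and exon forms from 20 control reads on both sides. Internal rows below 5%, the 34-nt exon of PTBP2, MATR3 and PKM were added after values were seen. Members and lists were chosen with earlier results of these data known. Scripts were tested on simulated data. Tools were Python 3.11.15, pandas 2.3.3, numpy 2.4.6, scipy 1.17.1, statsmodels 0.14.6 and matplotlib 3.10.9. Alternatives covered pseudocount, scaling, reference, isoform sets, filters, the length and GC trend, and each library left out.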

Additional observations from a re-analysis of the deposited data

How the results depend on the processing

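No paired analysis was possible because every group has 1 library, all labelled replicate 1. The median PTBP1 difference of -0.51 was -0.42 with median-of-ratios scaling, -0.28 against the median of the other 6 libraries and -0.045 with the length and GC trend removed; leaving out each library in turn gave -0.76 to -0.26, since the 6 values spread widely. That scaling moved all genes by 0.16 in G13, 0.14 in G12 and 0.11 in G14. The PTBP3 median of -0.51 was -0.22 against the other 6 libraries and -0.80 with the trend removed, and -0.55 to -0.48 with a library left out; that of PTBP2 was -0.19 to -0.08. Median usage distances with a library left out ran from 0.058 to 0.087 for PTBP1, 0.20 to 0.21 for PTBP2 and 0.182 to 0.183 for PTBP3. With isoforms of at least 1 TPM the PTBP2 and PTBP3 distances were 0.091 and 0.081, and with reference IDs only 0.10 and 0.039. Summed over libraries, genes at least 2-fold higher numbered 686, and 457 at a mean of at least 20 TPM, and genes at least 2-fold lower numbered 5345, with 2784 at that mean and 9939 with no filter. Gene and library pairs with a usage distance of at least 0.2 numbered 5521, but 1240 for isoforms of at least 1 TPM and 1513 at 20 TPM. The PTBP1 internal share in G13 was 7.21 points above the control with no margin before the second exon, an alternative chosen after seeing the data. The cause of these shifts was not tested, and the sign of a median turned only for PTBP2, from -0.14 to 0.0037 with isoforms of at least 1 TPM. The PTBP1 call in G13 was kept under the other alternatives run and lost only with the trend removed. PTBP2 and PTBP3, with 200 to 414 reads a library, can show only large differences in isoform use.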
